A study of Mus musculus with 6 samples.

Results

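Wild-type-only peaks are the accessible regions that the authors' joint peak list for Atoh7 +/+ retinas holds and their joint list for Atoh7 SE/SE retinas lacks. They were chosen by the measured peak positions, as the peaks of the joint wild-type list on chromosomes 1 to 19 that share 0 bases with any peak of the joint SE/SE list, and they number 6371 of 102413, or 6.22%. Accessibility was measured by ATAC-seq, where the enzyme Tn5 inserts sequencing adapters wherever chromatin is open, in mouse retinas of the C57BL/6 strain at E14.5, an embryonic stage of ganglion cell birth. The 3 wild-type libraries come from Atoh7 +/+ animals and the 3 SE/SE libraries from embryos with both copies of the Atoh7 shadow enhancer mutated, each library from the retinal pair of 1 animal, with about 100000 cells transposed and the equivalent of 50000 cells amplified. Both are genotypes of whole animals, and the labels name no other allele or agent in either group. The 2 joint lists and 6 library lists hold peaks and no read counts.

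The product of Atoh7 is a proneural bHLH protein that retinal progenitors need to become ganglion cells, the neurons whose axons form the optic nerve. A shadow enhancer is an extra enhancer whose activity resembles that of a gene's main one. An ATAC-seq peak caller such as Genrich reports stretches where cuts pile up beyond the background, so a weak region near its limit can be listed in one data set and missing from another.

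Read depth is unknown. The lists held 27873 to 34797 peaks in wild-type and 39115 to 44242 peaks in SE/SE libraries, 104991 in the joint wild-type and 120772 in the joint SE/SE list. PCR cycle numbers were 17, 18 and 19 in wild type and 15, 16 and 16 in SE/SE, so amplification and genotype cannot be told apart. All 21 neurogenic genes of a fixed list and 23 of 24 retinal progenitor genes had a joint wild-type peak within 1 kb of a gene end. In other lists of the neural retina, 40 of 41 ganglion cell and 20 of 20 amacrine and horizontal genes had one. So did 12 of 16 bipolar and Muller glia genes and 10 of 18 photoreceptor genes. Outside the neural retina 15 of 17 mesenchyme and optic stalk genes, 9 of 13 pigment epithelium genes, 10 of 20 lens genes, 7 of 14 endothelial genes and 3 of 15 microglia and blood genes had one. With 1 joint list per genotype there is no replicate of the set, so the values below are a description without a test, and their intervals (95%, exact binomial for shares, order statistics for medians) cover counting error only.

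Sequences show where some of these peaks fall on annotated promoters. RefSeq promoter windows for GRCm38.p6 (250 bases before to 50 after a gene's start) were overlapped by 68 of the wild-type-only peaks, in 69 windows of 67 genes. The 6 promoters here were chosen after their values were seen: that of Atoh7 as the gene of the strongest peak, that of Sp140 as the window with most bases covered, those of Sprr2a1 and Sprr2a2 as a pair of copies, and those of Hoxd11 and Adcyap1 as developmental and neuronal genes. The 250 bases before each start are given 5′ to 3′ on the gene's strand, with bases inside a wild-type-only peak in capitals.
Atoh7: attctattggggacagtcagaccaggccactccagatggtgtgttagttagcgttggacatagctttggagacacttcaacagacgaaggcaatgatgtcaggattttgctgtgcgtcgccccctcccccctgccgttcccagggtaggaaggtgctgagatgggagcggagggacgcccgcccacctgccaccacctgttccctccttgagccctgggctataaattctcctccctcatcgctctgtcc
Sp140: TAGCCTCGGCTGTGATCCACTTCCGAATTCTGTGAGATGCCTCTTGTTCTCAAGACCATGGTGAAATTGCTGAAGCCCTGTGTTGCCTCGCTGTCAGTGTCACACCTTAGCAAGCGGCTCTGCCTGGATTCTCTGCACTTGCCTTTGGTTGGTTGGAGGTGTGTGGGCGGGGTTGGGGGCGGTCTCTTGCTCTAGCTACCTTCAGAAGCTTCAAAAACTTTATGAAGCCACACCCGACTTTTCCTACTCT
Sprr2a1: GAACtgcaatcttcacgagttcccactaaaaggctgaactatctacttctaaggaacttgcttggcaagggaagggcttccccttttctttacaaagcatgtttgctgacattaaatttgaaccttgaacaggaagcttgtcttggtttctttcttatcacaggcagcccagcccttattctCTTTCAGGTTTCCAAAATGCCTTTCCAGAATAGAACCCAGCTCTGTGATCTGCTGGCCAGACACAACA
Sprr2a2: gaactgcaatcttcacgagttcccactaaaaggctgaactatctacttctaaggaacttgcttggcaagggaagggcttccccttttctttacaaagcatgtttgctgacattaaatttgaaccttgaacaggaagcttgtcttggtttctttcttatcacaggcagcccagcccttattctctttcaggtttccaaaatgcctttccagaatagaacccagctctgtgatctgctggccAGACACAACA
Hoxd11: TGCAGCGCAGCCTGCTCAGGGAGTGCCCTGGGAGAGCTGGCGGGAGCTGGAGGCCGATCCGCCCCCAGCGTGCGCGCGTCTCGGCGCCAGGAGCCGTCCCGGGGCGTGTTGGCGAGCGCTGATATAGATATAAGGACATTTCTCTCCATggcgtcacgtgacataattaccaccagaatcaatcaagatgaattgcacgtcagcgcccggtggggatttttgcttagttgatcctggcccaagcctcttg
Adcyap1: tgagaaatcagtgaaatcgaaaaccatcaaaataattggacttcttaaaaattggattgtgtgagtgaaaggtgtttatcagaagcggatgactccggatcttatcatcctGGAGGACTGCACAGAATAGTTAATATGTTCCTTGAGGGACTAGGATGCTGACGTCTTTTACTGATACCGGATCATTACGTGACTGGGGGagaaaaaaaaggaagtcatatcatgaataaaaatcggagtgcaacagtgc

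The Atoh7 stretch (chr10:63099535-63099784, plus strand) has no capitals: all 300 bases of its window lay in joint peaks of both genotypes, and the wild-type-only peak of this gene stands 8858 bp upstream. The Sp140 stretch (chr1:85600453-85600702, plus strand) is wholly in capitals, inside a peak of 768 bp with a signal value of 389.5, and the nearest joint SE/SE peak was 7733 bp away. Of the short sequence words in the Sp140 promoter window (length given below), 80.4% stood also in a promoter window elsewhere. Whether reads from such copies contribute to this peak was not tested. Sp140 encodes a chromatin-reading nuclear body protein of immune cells. The stretches of Sprr2a1 (chr3:92215585-92215834) and Sprr2a2 (chr3:92250397-92250646), both on the plus strand, are identical at 250 of 250 positions, and both genes encode small proline-rich proteins of the skin barrier. Of Sprr2a1, 72 of these bases lay in 2 wild-type-only peaks with signal values of 34.0 and 51.9, and of Sprr2a2 10 bases lay in a peak of 57.6. The gaps of these 3 peaks to a joint SE/SE peak were 3501, 3202 and 3000 bp.

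At Hoxd11 (chr2:74682073-74682322, plus strand), a homeobox gene of limb and trunk patterning, 149 of the bases lay in a wild-type-only peak of 265 bp and signal value 76.1. A joint SE/SE peak began 86 bp further on and covered 65 bases of the same promoter window. At Adcyap1 (chr17:93198767-93199016, plus strand), which encodes the neuropeptide PACAP, 89 bases lay in a peak of 89 bp and signal value 56.0, with 120 bp to the nearest joint SE/SE peak. Of these promoters, those of Hoxd11 and Adcyap1 thus have a wild-type-only peak close beside a joint SE/SE peak, and those of Sp140, Sprr2a1 and Sprr2a2 do not.

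Promoter windows touched by a wild-type-only peak had a lower GC content than those touched by peaks of both genotypes. Their median GC content was 50.3%, against 61.7% in 15684 windows touched by a shared peak, 51.7% in 299 windows touched by a peak of the joint SE/SE list only, and 46.7% in 15246 windows with no joint peak. The motif TAATTA, a core of homeodomain sites that reads the same on both strands, stood in 7 of the 69 windows (10.1%), against 2.61% of windows with a shared peak and 5.27% of all 31396. The E-box CAGATG, read on both strands, stood in 13 (18.8%), against 11.7% and 17.2%, and the E-box CAGCTG in 15 (21.7%), against 15.7% and 16.3%. None of these 3 motifs holds another, and the shares in the same order were 10.03%, 21.1% and 20.1% in windows touched by an SE/SE-only peak and 7.89%, 22.9% and 16.9% in windows with no joint peak. In 7 of the 69 windows (10.1%), at least 50% of the 25-base words stood also in a promoter window elsewhere. The windows of Sp140 (80.4% of words), Sprr2a1 and Sprr2a2 (100% each) were among these 7. Such windows made up 1.32% of those with a shared peak and 1.34% of those with an SE/SE-only peak. They made up 6.59% of windows with no joint peak and 3.90% of all.

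Wild-type-only peaks overlapped 2 of 919 miRNA hairpins. The one reported here is that of Mir34a, a miRNA induced by p53, at chr4:150068454-150068555 on the plus strand. Its mature sequences are given with the seed, bases 2 to 8, in capitals.
mmu-miR-34a-5p: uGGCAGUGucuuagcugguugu
mmu-miR-34a-3p: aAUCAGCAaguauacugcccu

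The peak at Mir34a was 171 bp wide with a signal value of 33.8, and the nearest joint SE/SE peak was 1554 bp away. It had no peak in any of the 6 libraries. The seeds of the 5p and 3p arms differ. For comparison, 134 hairpins overlapped a joint wild-type peak of either kind.

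By the authors' deposited signal value, an area over the peak that grows with its width, most wild-type-only peaks were weak. The median was 41.5 (40.7 to 42.4), which stands at percentile 10.3 of the joint wild-type list, whereas the shared peaks of the same list, those with a base in the joint SE/SE list, had 427. The lowest deposited value in the list is 20. Of the 6371, 3822 (60.0%) were under 50, 5516 (86.6%) under 100, and 47 (0.738%) at 300 or over. Their median width was 120 bp (118 to 122), against 280 bp in shared peaks, and 56 were wider than 500 bp, a width passed by 30.9% of the shared peaks.

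The share of joint wild-type peaks without an SE/SE partner fell steeply with signal value. It was 33.4% of 5622 peaks from 20 to 30, 14.1% of 12039 from 50 to 100, 1.13% of 8160 from 200 to 300, and 0.0129% (4 of 30924) at 1000 or over. The joint SE/SE list, in which 25958 of 117983 peaks (22.0%) had no wild-type partner, gave 78.6%, 61.7% and 17.4% in the same first 3 ranges, and 1 of 39461 at 1000 or over. Signal values of the 2 lists are not on a common scale, so each share is read within its own list. At the low end of both lists a peak without a partner was thus common, and at the high end it was rare.

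**Figure D1:**
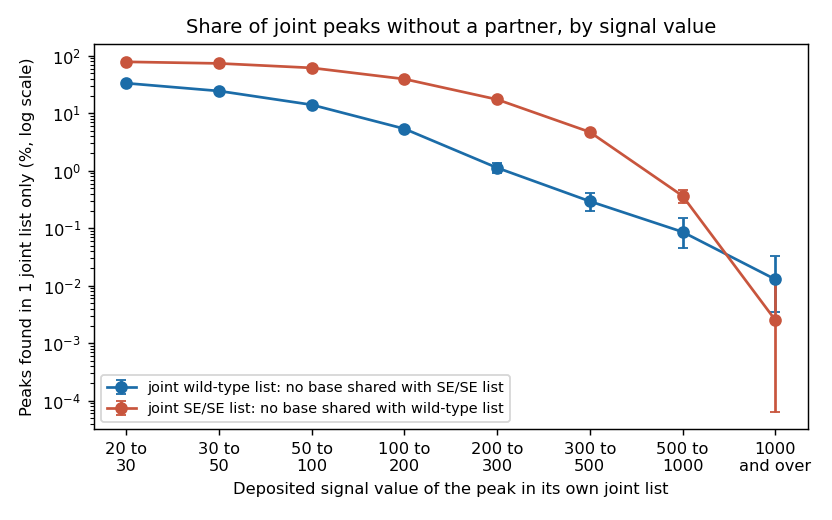
Share of peaks found in 1 joint list only (log scale) by the deposited signal value of the peak, for the joint wild-type list (blue) and the joint SE/SE list (red), with exact 95% binomial intervals. The wild-type share falls from 33.4% at 20 to 30 to 0.0129% at 1000 and over.

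Within the same broad range of signal value, the strongest wild-type-only peaks were broader and shallower than shared ones. From 300 to 2000, the 46 wild-type-only peaks had a median width of 502 bp, a median of 0.814 signal units per bp and a median deposited −log10 p of 5.25. The 34523 shared peaks of that range had 374 bp, 1.99 units per bp and 7.31. Of the 46, 31 lay from 300 to 500, where the joint wild-type list had 10518 peaks of either kind. The 2 sets thus differ in signal value inside that range too. From 20 to 50 the sets were alike in shape, with a median width of 100 bp in each and −log10 p of 3.77 and 3.81. The share inside genes over that range was 43.5% against 48.8%.

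A single wild-type-only peak stood far above the rest, the one upstream of Atoh7. This peak, chr10:63089099-63090927, lies between genes, 8858 bp from the start of Atoh7 (gene ID 53404, chr10:63099785-63101280). It is 1829 bp wide, with a signal value of 8034 and a −log10 p of 14.51, and the nearest joint SE/SE peak was 6680 bp away. By signal value it ranked 5831 in the whole joint wild-type list, so it was strong but well short of the strongest shared peaks. Each wild-type library had 2 separate peaks within it. Their signal values were 407 and 209 in wild type 1, 427 and 272 in wild type 2, and 268 and 98.6 in wild type 3, and the stronger of each pair stood at percentiles 62.6, 62.6 and 52.3 of those libraries' lists. SE/SE 1, 2 and 3 had no peak there. Library peaks at this place thus followed the genotype labels. The SE/SE embryos carry a mutated Atoh7 shadow enhancer, and whether this peak holds that enhancer was not tested. A change of the sequence itself therefore cannot be told apart here from a change of accessibility. The rule asks for no joint SE/SE peak, and the joint lists come from the same libraries. The lack of SE/SE library peaks is therefore no independent sign of a genotype difference. It was also 1 of the 4 joint wild-type peaks whose nearest coding gene is Atoh7; the other 3 shared bases with the joint SE/SE list.

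A peak on chromosome 6 was the only other wild-type-only peak with support from single libraries. It spans chr6:10690591-10691144, 554 bp, with a signal value of 1635 and a −log10 p of 9.17. Wild type 3 had a peak there with a signal value of 278, at percentile 53.1 of its list, wild type 2 one of 73.8, at percentile 24.7, and wild type 1 and the 3 SE/SE libraries had none. The groups therefore overlap at this place, since 1 wild-type library was like the SE/SE libraries. The nearest protein-coding gene end, that of the mitochondrial subunit gene Ndufa4, lies 1209228 bp away, and the nearest annotated gene of any kind, Gm2691, 83015 bp away. After Atoh7 and this peak, the next highest −log10 p of the set was 6.50, while 28.5% of shared peaks had at least 9.

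The other 18 of the 20 strongest wild-type-only peaks had no peak in any of the 6 libraries. The next by signal value were 2 peaks, in Eppk1, which encodes the plakin-repeat protein epiplakin (chr15:76102614-76105062, 2449 bp, signal value 1382), and in Kdelr2, which encodes a receptor that returns proteins to the endoplasmic reticulum (chr5:143413964-143415057, 1094 bp, 1253). Their −log10 p of 5.15 and 5.94 were far below the 14.51 of the Atoh7 peak. The next, at 753, lay 4689 bp from an end of Trappc6b, a subunit gene of a vesicle-tethering complex. Gpr180, an orphan receptor gene, followed with 736 and Senp7, a SUMO protease gene, with 678, both with the peak inside the gene.

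On chromosome 1, 3 of the 20 lay within 100 kb of each other. One was inside Mroh2a near Hjurp, which encodes the chaperone of the centromeric histone (chr1:88247537-88248889, signal value 656). Another was inside Mroh2a, 2716 bp from the nearer gene end and 2687 bp from the nearest listed start site (chr1:88229707-88230830, 651). The last lay 5320 bp from the start of Trpm8, the cold and menthol channel gene (chr1:88300316-88301415, 646). Their gaps to a joint SE/SE peak were 384, 1062 and 306 bp. On chromosome 12, 2 lay inside Ahnak2, a giant scaffold protein gene, at chr12:112783652-112784664 (619) and chr12:112781530-112782466 (541). These 2 belong to 9 joint wild-type peaks in a row, over 8624 bp, that are all wild-type-only, and the joint SE/SE list had 0 peaks in that stretch.

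The rest ranged from 578 to 481 and differed in setting, and 1 of them is not described. Cpt1a, the entry enzyme of mitochondrial fatty acid oxidation, had one 3694 bp from its end (578), and one covered an end of Uros, an enzyme of haem synthesis, inside Bccip (540.1). Peaks inside genes were at the complex I assembly gene Ndufaf6 (514), the BAF complex gene Bicra (496) and the receptor kinase gene Alk (481). The peak with 485 lay 59455 bp from the ribosome biogenesis gene Wdr75, and that with 499 lay 246221 bp from Snrpn and 39 bp from a small RNA gene, Gm23953. Only the Uros peak of the 20 was within 1 kb of a protein-coding gene end.

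**Figure D2:**
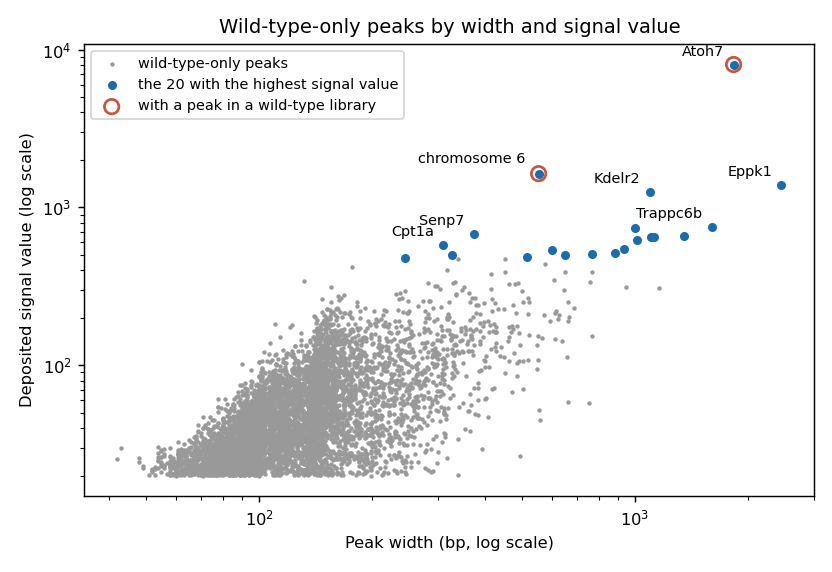
Width (bp, log scale) and deposited signal value (log scale) of the 6371 wild-type-only peaks (grey), with the 20 of highest signal value in blue and those with a peak in a wild-type library circled in red. The Atoh7 peak, at 8034, stands well above the second, on chromosome 6, at 1635.

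Single-library lists rarely held these regions. Of the 6371, 1 had a peak in wild type 1, 2 in wild type 2, 2 in wild type 3 and 0 in each SE/SE library, so 6369 were in no library list. Of the 96042 shared peaks, 30145 (31.4%) had a peak in at least 1 wild-type library. The lowest signal value of a shared peak with such support was 426, a value that few wild-type-only peaks reach. From 300 up, 54.5% of the shared and 2 of 47 wild-type-only peaks had support, from 500 to 1000 it was 15.5% and 0 of 12, and at 1000 or over 90.5% and 2 of 4. The joint list comes from the same libraries, so these counts are no independent check of the set.

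Over all signal values, wild-type-only peaks lay less often near gene ends than shared peaks did, and more often far from genes. Within 1 kb of a protein-coding gene end lay 468 (7.35%, interval 6.72 to 8.01), against 17.1% of shared peaks. For SE/SE-only peaks that share was lower still, at 5.05% (4.79 to 5.32). Among peaks with a signal value under 100 the shares of wild-type-only and shared peaks were 7.96% and 6.97%, with overlapping intervals (7.26 to 8.70 and 6.62 to 7.33). Inside genes and further from their ends lay 2656 (41.7%), against 41.9% of shared and 50.9% of SE/SE-only peaks, and under 100 it was 42.5% (41.1 to 43.8) against 48.5% (47.8 to 49.2) of shared peaks. More than 100 kb from a coding gene end and outside genes lay 1337 (21.0%), against 13.8% of shared and 16.5% of SE/SE-only peaks. Under 100, that share was 20.2% (19.2 to 21.3) against 16.5% (16.0 to 17.0) of shared peaks, with median signal values of 37.1 and 51.2 in those sets. In the narrower range from 20 to 50 it was 19.5% and 16.4%.

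Many wild-type-only peaks sat beside a peak of both genotypes. The median gap to the nearest joint SE/SE peak was 2559 bp (2277 to 2927), but 2088 of them (32.8%) had one within 500 bp. For 1866 of these 2088 (89.4%), that nearest SE/SE peak shared bases with another wild-type peak. Sharing was common in the whole joint SE/SE list too, where 22.0% of peaks had no wild-type partner. Wild-type-only peaks close to an SE/SE peak were narrow, with median widths of 95 bp under a gap of 200 bp and 139 bp at 10 to 100 kb. They were also more often near genes: 15.7% of the 1067 with a gap of 100 to 200 bp lay within 1 kb of a coding gene end, against 1.29% of the 1709 at 10 to 100 kb. In the SE/SE-only set the median gap was longer, at 3298 bp (3204 to 3401). There, 0.755% had a gap under 100 bp against 4.11% here, and 40.2% one of 1 to 10 kb against 31.0%. The longest gaps ran the other way, with a 95th percentile of 41905 bp against 60638.5 bp here. At 100 kb and over lay 0.901% against 2.21% here. The gaps of the 2 sets run to lists of unlike size, 102413 peaks for SE/SE-only and 117983 here.

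**Figure D3:**
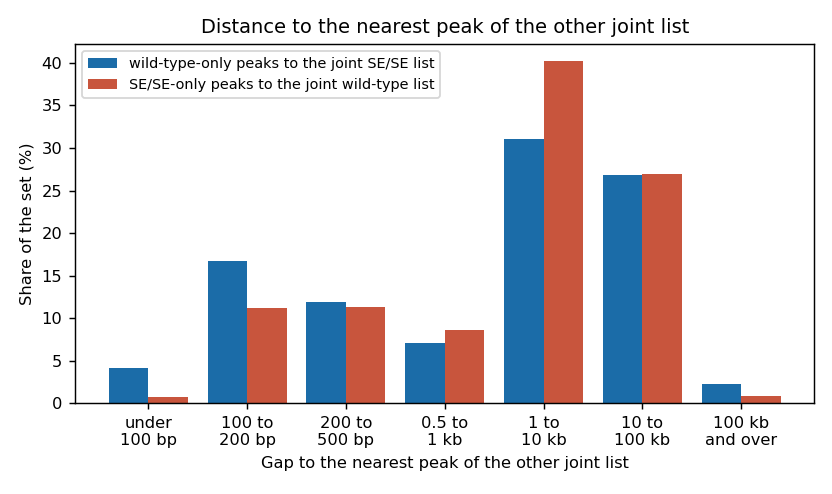
Share of wild-type-only peaks (blue) and SE/SE-only peaks (red) by gap to the nearest peak of the other joint list. In both sets the range from 1 to 10 kb holds the most peaks of any range, and wild-type-only peaks have a second rise at 100 to 200 bp (16.7%).

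At the edge of the rule, the peaks on both sides were weak. Just inside, a 77 bp peak in Ssu2 (chr6:112360533-112360609, signal value 29.5) missed a joint SE/SE peak by 5 bp, and one near Elp4, beside Pax6, with 20.7 missed it by 8 bp. Just outside, a peak nearest to Sh3rf1 (chr8:61390938-61391190, 42.4) shared 3 bases with one, and a peak nearest to Nol10 with 24.2 shared 4. In all, 8 shared peaks had under 10 bases in common with the SE/SE list. At the other extreme, a peak near Gm6882 (chr7:21404095-21404233, 139 bp, 50.2) was 1447273 bp from any joint SE/SE peak.

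Some stretches with families of duplicated genes held many wild-type-only peaks. In windows of 1 Mb, the 10 with most of them held 362 of the 6371 (5.68%), and also 53 of 25958 SE/SE-only peaks (0.204%) and 480 of 96042 shared peaks (0.4998%). The windows were picked by their wild-type-only count, which fixes the direction of that difference. Picked in the same way for SE/SE-only peaks, the 10 fullest windows held 371 of the 25958 (1.43%), 73 wild-type-only (1.15%) and 1073 shared peaks (1.12%). Across the 1942 windows with at least 20 joint wild-type peaks, the median was 2 wild-type-only and 12 SE/SE-only peaks, and 51 windows (2.63%) had more wild-type-only than SE/SE-only peaks. These 10 windows were all among the latter. Of the 47 wild-type-only peaks at 300 or over, 15 lay in the 10 windows.

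The first window, chr8:20000001-21000000, held 134, which is 57.3% of its 234 joint wild-type peaks, and 12 SE/SE-only peaks. It has 25 annotated genes, 14 of them pseudogenes, and its coding genes include Gm15319, Gm21119, Gm40469 and the beta-defensin gene Defb33. The strongest was at chr8:20331801-20332450, with a signal value of 391, 5214 bp from Gm15319. Gm15319 was the nearest coding gene of 47 wild-type-only peaks and Gm21119 of 32, the highest counts of any gene. The neighbouring window, chr8:19000001-20000000, with 12 beta-defensin genes, held 27, or 58.7% of its 46 peaks. Beta-defensins are antimicrobial peptides of epithelia.

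The next 2 windows by count held 33 each. One, chr1:85000001-86000000, carries Sp110, Sp140 and Sp100, interferon-induced nuclear body genes, and 33 was 55.9% of its 59 joint wild-type peaks. Its strongest peak was the one over the Sp140 promoter whose sequence is given above. The other, chr4:147000001-148000000, carries 9 coding Zfp genes, which encode zinc finger proteins, and 20 pseudogenes, and 33 was 40.7% of its 81 peaks. Its strongest, chr4:147336696-147337272 with 438, lay inside Zfp978.

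The other windows of the 10 are named after their values were seen. They hold the Speer4c and Speer4d genes on chromosome 5 (32 wild-type-only peaks, 35.6%), 9 Ugt1a genes of the glucuronidating enzymes together with Mroh2a and Trpm8 on chromosome 1 (30, 27.0%), and 10 Sprr2 and 20 Lce genes of the cornified envelope on chromosome 3 (21, 44.7%). Further ones hold 5 coding Zfp genes on chromosome 4 (18, 50%), 206 small nucleolar RNA genes near Snrpn on chromosome 7 (17, 70.8%) and Sfi1 on chromosome 11 (17, 14.9%). For reads that match several places, the treatment was not given in the sources used here, so the place of a peak among near-identical copies is uncertain.

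**Figure D4:**
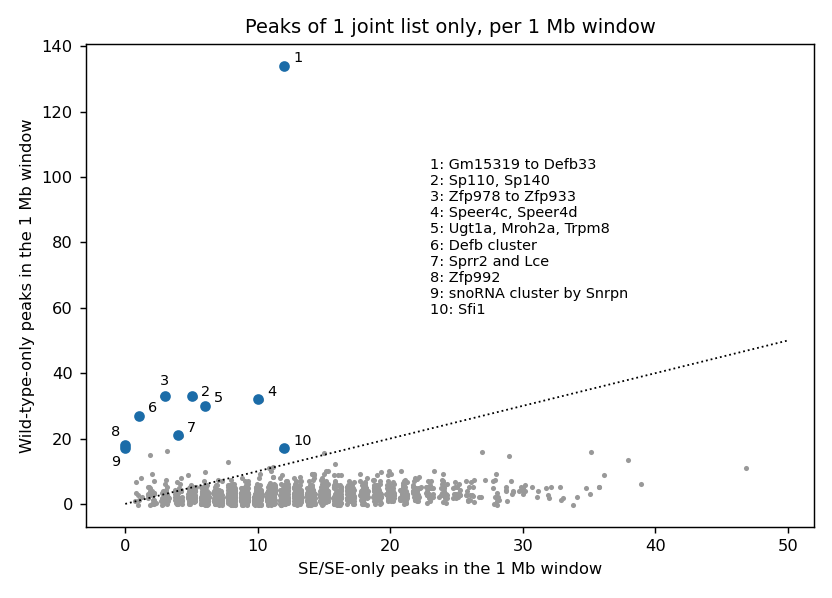
Number of wild-type-only against SE/SE-only peaks in each of 1942 windows of 1 Mb with at least 20 joint wild-type peaks (grey, shifted slightly at random so that points can be told apart). The dotted line marks equal numbers, and the 10 windows with most wild-type-only peaks (blue) lie above it, the first at 134 against 12.

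The picking of these windows by joint wild-type-only peaks favours joint wild-type coverage, so the joint values here are a description. Joint wild-type peaks covered 427 kb of the 10 windows and joint SE/SE peaks 286 kb, a ratio of 1.495, while over chromosomes 1 to 19 the ratio was 0.860. In the single libraries, the same 10 windows had 123, 130 and 105 peaks in wild type 1, 2 and 3 and 138, 129 and 126 in SE/SE 1, 2 and 3, so the groups overlapped in part. The bases covered, 60.7 kb on average in wild type and 65.9 kb in SE/SE, gave a ratio of 0.921, and 0.735 over chromosomes 1 to 19. For the first window, wild-type libraries covered 7123 ± 743 bp and SE/SE libraries 7244 ± 228 bp (SD, n = 3 each), against 122634 and 57292 bp in the joint lists. There the libraries of the 2 genotypes overlapped, as they did in 6 of the 10 windows. In the other 4, every wild-type library covered fewer bases than every SE/SE library, for example 3031, 3730 and 2681 bp against 3839, 4314 and 4283 bp at chr1:85000001-86000000. The library mean was lower in wild type in 9 of the 10 windows.

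**Figure D5:**
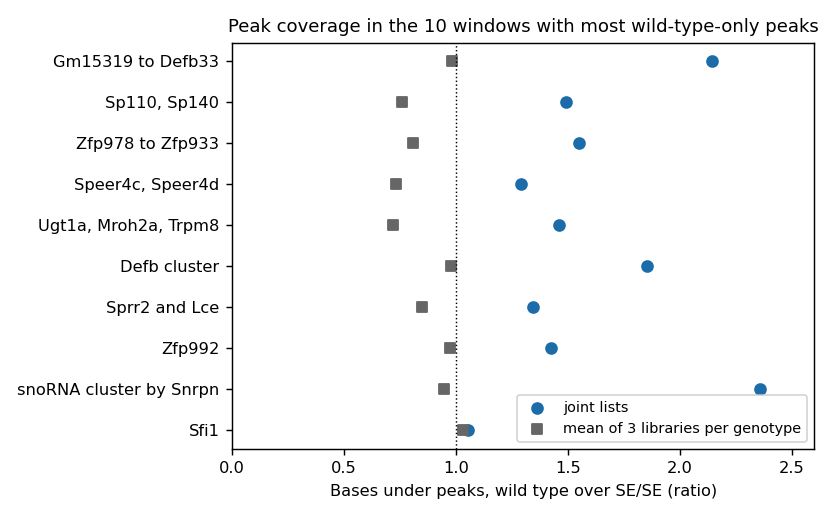
Bases under peaks in wild type over SE/SE in the 10 windows with most wild-type-only peaks, for the joint lists (blue circles) and for the mean of the 3 libraries per genotype (grey squares); the dotted line marks equal coverage. The joint ratio is 2.14 in the first window and 1.05 in the last, and the library ratio there is 0.983 and 1.03.

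By chromosome, the share of joint wild-type peaks in the set ran from 4.81% (4.05 to 5.68) on chromosome 19 to 8.32% (7.62 to 9.05) on chromosome 8. Chromosome 1 followed with 7.70% and chromosome 5 with 7.19%, while chromosomes 9 and 18 had 4.91% and 4.99%. Without the 10 windows, chromosome 8 fell to 5.84% and chromosome 1 to 6.99%, which was then the highest. Of all 6371 peaks, 19.1% had another within 10 kb, and of those outside the 10 windows 14.7%, against 36.3% in the larger SE/SE-only set and 73.2% among shared peaks. Of the 6371, 5012 (78.7%) stood alone between shared neighbours. Windows with at least 1 wild-type-only peak made up 87.0% of the 2408 with any joint peak.

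For genes of retinal cell types, the share of wild-type-only peaks could not be told apart from that of all coding genes, though the lists were small. A peak was assigned to the nearest protein-coding gene end within 100 kb, which gave 4593 wild-type-only peaks at 3352 of 20665 genes (16.2%), or 5.71% of all joint wild-type peaks so assigned. Ganglion cell genes had 33 of 559 (5.90%, 4.10 to 8.19), progenitor genes 20 of 487 (4.11%, 2.53 to 6.27) and neurogenic genes 11 of 206 (5.34%, 2.70 to 9.35). Amacrine and horizontal genes had 11 of 265 (4.15%, 2.09 to 7.31) and photoreceptor genes 2 of 101 (1.98%, 0.241 to 6.97). Except for ganglion cell genes, these shares lay below 5.71%, and such wide intervals do not show that the shares are equal. The exact interval covered 5.71% for 11 of 14 lists, and 1 list, housekeeping genes with 9 of 74 (12.2%, 5.71 to 21.8), had a share above 6.22%. The intervals of axon guidance genes, with 21 of 691 (3.04%, 1.89 to 4.61), and of endothelial genes, with 1 of 97 (1.03%, 0.0261 to 5.61), lay below it.

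At single retinal genes these peaks were mostly weak. In the ganglion cell list the strongest was 22800 bp from Irx5, an Iroquois homeobox gene (chr8:92384256-92384489, signal value 224), and the next at Irx3 (77.0). Irx5, Elavl4, which encodes a neuronal RNA-binding protein, and Ebf3, a transcription factor gene, had 3 each, of 21, 24 and 35 joint wild-type peaks, and Pou4f2, the ganglion cell factor downstream of Atoh7, had 1 of 10 (46.2). Among progenitor genes the strongest was inside the LIM homeobox gene Lhx2 (183), then in Nfia (108), and Meis1 had the most, 5 of 55. In the neurogenic list, after Atoh7 the strongest was near the proneural gene Neurod4 (59.5), and Onecut1 had 3 of 19. A signal value of 100 was thus passed at Atoh7, Irx5, Lhx2 and Nfia in these 3 lists.

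Other cell types gave the same picture. For amacrine and horizontal cells the strongest was 25464 bp from Prdm13, a transcription factor gene of amacrine cells (176). The next lay inside Ccdc24, 115 bp from an end of the glycine transporter gene Slc6a9 but 13873 bp from the nearest listed start site (81.3). For photoreceptors they were in the nuclear receptor genes Rorb (55.9) and Rxrg (47.6), and for bipolar cells both lay in Trpm1, the channel of ON bipolar cells (41.0 and 33.1). Outside the neural retina, those for pigment epithelium were 66608 bp from the pigment cell regulator Mitf (88.4) and in Wfdc1 (37.0). For lens they were in the beaded filament gene Bfsp2 (117) and 37322 bp from the crystallin gene Cryba4 (112). The VEGF receptor gene Flt1 (22.3) stood for endothelium. For microglia and blood they were inside Med12l, 22593 bp from the purine receptor gene P2ry12 (114), and in Ptprc, which encodes CD45 (29.2). For mesenchyme and optic stalk they were 13162 bp from the collagen gene Col1a2 (80.2) and in Pax2 (70.3).

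Genes of general cell functions had some of the stronger peaks. The replication licensing genes Mcm2 (332) and Mcm3 (57.6) led the cell cycle list, and the housekeeping list had one in the elongation factor gene Eef2 (167). In the axon guidance list the strongest were in the adhesion molecule gene Nrcam (117) and 29018 bp from the netrin receptor gene Unc5b (104). Of all peaks named from the lists, the Atoh7 peak alone had a peak in a library.

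Several multigene families had higher shares of peaks, though a few genes held many of them. Defensin genes had 12 of 38 joint wild-type peaks in the set (31.6%, 17.5 to 48.7), vomeronasal receptor genes 28 of 124 (22.6%, 15.6 to 31.0), olfactory receptor genes 26 of 191 (13.6%, 9.09 to 19.3) and Zfp genes 129 of 1338 (9.64%, 8.11 to 11.4). Of the 12 at defensin genes, 6 were nearest to Defb33, and Zfp608, Zfp991, Zfp992 and Zfp978 had 9, 8, 8 and 7. Genes with such a peak were 7 of 71 defensin, 23 of 354 vomeronasal, 25 of 1104 olfactory receptor and 66 of 388 Zfp genes. The intervals treat peaks that lie close together as independent. These shares, like those of the gene lists, were not matched on signal value, with which the share of wild-type-only peaks fell. The interval covered the 5.71% of all genes in the other 6 families, among them protocadherin genes with 9 of 166 (5.42%) and ribosomal protein genes with 12 of 284 (4.23%). In the joint SE/SE list the shares without a wild-type partner were 3 of 30 for defensin genes (2.11 to 26.5%), 17 of 113 for vomeronasal genes (9.01 to 22.99%), 63 of 228 for olfactory receptor genes (21.9 to 33.9%) and 224 of 1407 for Zfp genes (14.0 to 17.9%), against 20.8% of peaks at all coding genes. The interval lay below 20.8% for Zfp genes and above it for olfactory receptor genes, and it covered 20.8% for the defensin and vomeronasal genes.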

How the data were processed

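The files are 8 deposited peak lists in narrowPeak form, per the file headers. Tools named in the submitters' processing notes, without role or order, are Genrich 0.5, BWA, cutadapt, limma and bedtools 2.27.0, with the build GRCm38 (mm10); for trimming, Tn5 shift, duplicates, the joining of libraries and scaling, details are not stated there. Each peak the authors deposited has a score (capped at 1000), a signal value and a −log10 p. Multiplying signal value per bp by 1000 gave that score, within 1 and up to the cap, for 100% of peaks. The signal value was used only inside its own list.

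Overlap meant 1 shared base. Positions count from 1. Genes came from the RefSeq table for GRCm38.p6, which has no strand, so distances run to the nearer gene end; promoter and miRNA sequences came from RefSeq tables of that build. Named were Atoh7, the 20 strongest peaks, those with a library peak, 2 per gene list and the 3 fullest windows, plus peaks named as chosen later. Of the 14 gene lists, the shares not given above were 3.49% for cell cycle, 1.03% for endothelial, 3.26% for lens, 2.59% for bipolar cell and Muller glia, 5.88% for microglia and blood, 5.43% for pigment epithelium and 5.74% for mesenchyme and optic stalk genes. A few results that the naming rule covers are not reported here. Members and lists were chosen with earlier results of these data known. Python 3.11.15, numpy 2.4.6, pandas 2.3.3 and scipy 1.17.1 were used. On simulated lists of 5000 peaks, 200 of 200 planted wild-type-only peaks were recovered, with 0 false calls. The planted peaks were left out of the simulated SE/SE list and the others only shifted within their width. This outcome therefore checks the overlap code only, as close neighbours and peaks near the caller's limit were not simulated.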

Additional observations from a re-analysis of the deposited data

How the results depend on the processing

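Of 66 alternative values, 38 stayed within the interval of the reported value or within 1.5 times the count, and 28 moved. The set numbered 2549 with wild-type signal values of at least 50 and 9876 with the joint SE/SE list cut to its strongest 104991 peaks, and the Atoh7 peak was in the latter too. With signal values of at least 50, 6.12% lay near gene ends and 38.9% inside genes, the median width was 149 bp, the median signal value 79.2 and the median gap 4099 bp, and 14.7% had another member within 10 kb. With no joint SE/SE peak within 500 bp, these were 3.39%, 40.2%, 135 bp, 45.2, 7611 bp and 15.3%. Counting also peaks with under 50% of their width covered gave a width of 128 bp, a signal value of 44.3, a gap of 1482 bp and 21.8% with a neighbour. With the cut SE/SE list, 43.0% lay inside genes, the median signal value was 44.6 and 23.4% had a neighbour. With all annotated genes, 12.9% lay near a gene end and 47.1% inside genes, and within 5 kb of a coding gene end lay 20.4%. Within 100 kb of another member lay 51.2%. A peak that covers 50% of the member was found in a wild-type library for 1 member. Added after seeing the data were leaving out the 10 windows, after which 14.7% had a neighbour within 10 kb, and requiring only the summit to lie outside SE/SE peaks, which gave a gap of 1972 bp. The cause of these shifts was not tested. Leaving out 1 library at a time gave 2 to 2 members with a wild-type library peak and 0 to 0 with an SE/SE one. No paired analysis was possible because no result comes from a test between libraries, and the joint lists cannot be split by replicate number.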
